A study of Mus musculus with 477 samples.

Results

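The tumors that arose in *Brca1* mutant mice were compared with the *Brca1* mutant luminal cells of mice without a tumor. All mice of this comparison were female, on a background labelled C57BL/6 and 129/Sv mixed, and carried MMTV-Cre with *Brca1* fl/fl. Tumor cells came from 2 mice, BrT1 (47 cells) and BrT2 (37 cells), and luminal cells from 3 mice, the virgin vBrL (35 cells) and, at day 12.5 of pregnancy, pBrL-1 (71) and pBrL-2 (38). This makes 228 of the 477 cells and 5 of the 11 mice of the series, chosen by the tissue and genotype in the sample labels. Luminal mice were 3 to 4 months old. Tumors were taken at about 1 cm in diameter, and no age, parity or stage is given for the tumor mice in the labels. Mice of this genotype are described in the study as developing tumors at about a year of age or later, so tumor and age cannot be told apart. Luminal cells were sorted as living cells with high CD24, low CD29 and the membrane GFP of the ROSA mT/mG reporter that Cre switches on, while tumor cells were sorted as living CD24-positive cells, in both cases after hematopoietic and endothelial cells were depleted. The gates therefore differed between the arms.

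Luminal cells line the ducts and alveoli of the mammary gland. They are held together by E-cadherin and claudins, carry simple keratins, and during pregnancy they make milk proteins and milk fat. BRCA1 repairs broken DNA by homologous recombination, and loss of it predisposes this epithelium to cancer. In this model MMTV-Cre removes the floxed *Brca1* exons in mammary epithelium, so both arms come from the mutant model and neither is a wild-type control. Deletion was not measured in any cell, and only the luminal gate used the GFP that Cre switches on. Single cells were captured on a Fluidigm C1 chip and read as full-length cDNA. The 5 mice were on 5 different chips, so mouse and chip, and tumor arm and chip, cannot be told apart.

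Levels are the reads of a gene per 1000000 reads (CPM), summed over the cells of a mouse, so a level holds both the share of cells with the transcript and its amount per cell. Luminal values are listed in the order vBrL, pBrL-1, pBrL-2. The summed depth was 49.9 to 116 M reads per mouse, and each cell had 2819 to 8586 genes with a read. Casein reads took 3.64% to 12.3% of the luminal libraries and at most 0.374% of the tumor libraries. The targeted gene *Brca1* (chromosome 11, 101488764 to 101551955 on GRCm38) had 57.2 CPM in BrT1 and 1.7 in BrT2, against 4.24, 2.03 and 31.8 CPM in the luminal mice. Its level thus did not separate the arms, and reads from the exons that remain are counted too.

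The labels were checked against marker genes in each cell after thinning to 100000 reads. A read of a simple keratin (*Krt8*, *Krt18* or *Krt19*) was found in 43 of 47 BrT1 cells, 35 of 37 BrT2 cells and all 144 luminal cells. A read of a mesenchymal gene (*Vim*, *Fn1* or *Zeb1*) was found in all 47 BrT1 cells and all 37 BrT2 cells, but in 1 of 35, 6 of 71 and 4 of 38 luminal cells. In the tumors *Fn1*, which is a matrix gene as well, was read in all 84 cells and so sets this count alone. A read of *Vim* or *Zeb1*, counted after values were seen, was found in all 47 BrT1 cells and 28 of 37 BrT2 cells, against 0, 5 and 3 luminal cells, and 43 BrT1 cells and 26 BrT2 cells held it together with a keratin read. The adhesion genes *Cdh1* and *Epcam* set the tumors apart from each other, with a read of either in 5 of 47 BrT1 cells and 34 of 37 BrT2 cells. A read of a basal gene (*Krt5*, *Krt14* or *Trp63*) was found in 14 BrT1 cells and 1 BrT2 cell, against 6, 35 and 19 luminal cells. Fibroblast markers were not at the same level in both tumors. Their summed level was 4955 CPM in BrT1, 0.22 in BrT2 and 712, 25.4 and 0.156 in the luminal mice. In BrT1 most of it was *Dcn* (4356 CPM). Of the 9 markers 3 (*Lum*, *Dpt* and *Thy1*) had 0 reads in BrT1, and the others, among them *Col1a1*, *Col1a2* and *Col3a1*, had reads. Per cell the genes counted were *Pdgfra*, *Col3a1*, *Dcn*, *Lum*, *Thy1* and *Pdgfrb*, and a read of any was found in all 47 BrT1 cells. The 43 of these cells that also held a keratin read are therefore the keratin count itself. Endothelial, immune, red cell and adipocyte markers summed to at most 3.23 CPM each in either tumor.

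Against this background, 12 of 13514 tested genes were called between the tumors and the luminal mice, 6 higher and 6 lower in tumors (edgeR quasi-likelihood test, Benjamini-Hochberg adjusted p under 0.05). The calls are 0.0888% of the genes tested, 0.0444% in each direction, and 1651 genes had an unadjusted p under 0.05. The 6 higher genes were a scavenger receptor, a channel subunit, enzymes of collagen and of sugar chains, and a chemokine. *Loxl3* (chromosome 6, 83034173 to 83052562), a lysyl oxidase that cross-links collagen and elastin, had 105.01 CPM in BrT1 and 80.1 in BrT2, and the 3 luminal mice together had 1 read of it. The mean tumor level was 24272 (95% counting interval 4356 to 958679) times that of the luminal mice (edgeR adjusted p = 0.0402). *Lrrc8c*, a subunit of the volume-regulated anion channel, had 218 CPM in BrT1 and 62.3 in BrT2 and also 1 luminal read, with a ratio of 36797 (95% counting interval 6604 to 1453410.0) and an edgeR adjusted p = 0.044. In both genes each tumor was far above every luminal mouse.

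*Chst2*, a sulfotransferase of glycan chains, had 59.4 CPM in BrT1 and 216 in BrT2 and 2 luminal reads, with a ratio of 18033 (95% counting interval 4992 to 148906) and an edgeR adjusted p = 0.0452. *Fkbp10*, a prolyl isomerase that helps collagen fold in the endoplasmic reticulum, had 49.2 CPM in BrT1 and 97.4 in BrT2 and at most 0.0649 CPM in a luminal mouse (edgeR adjusted p = 0.0452). *Cxcl1*, a chemokine that draws neutrophils, was the only one of the 6 with a luminal level that could be measured well. It had 5089 CPM in BrT1 and 2392 in BrT2 against 95.8, 107.2 and 100.3 CPM in the luminal mice, a log2 fold change of 5.10 ± 0.52 (SE; edgeR adjusted p = 0.0452). A *Cxcl1* read was present in all 47 BrT1 cells and 36 of 37 BrT2 cells (97.3%, exact 95% interval 85.8 to 99.9%), and in 25.7% to 34.2% of luminal cells. Without thinning these luminal shares were 40.0%, 26.8% and 44.7%.

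*Colec12*, a scavenger receptor of the collectin family, had 238 CPM in BrT1 and 47.1 in BrT2 and 1 luminal read (edgeR adjusted p = 0.044). Its level in the tumors rested on different numbers of cells, 39 of 47 BrT1 cells (83%, exact 95% interval 69.2 to 92.4%) and 2 of 37 BrT2 cells (5.41%, exact 95% interval 0.661 to 18.2%). Without thinning the shares were 91.5% and 8.11%. A few cells thus carried the whole BrT2 signal. *Loxl3* was more even, with reads in 29 of 47 BrT1 cells and 12 of 37 BrT2 cells.

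The 6 genes lower in tumors were expressed in every luminal mouse, virgin and pregnant. *Gjb6* and *Gjb2*, neighbouring connexin genes of gap junctions (chromosome 14, 57123303 to 57133611 and chromosome 14, 57098600 to 57104702), were nearly or wholly without reads in the tumors. *Gjb6* had 0 reads in both tumors and 277, 277 and 216 CPM in the luminal mice, at least 12021-fold lower against a floor of 3 reads over the 2 tumors (edgeR adjusted p = 0.0402). *Gjb2* had 0.121 CPM in BrT1 and 0.0401 in BrT2 and 141, 279.8 and 205 CPM in the luminal mice, a log2 fold change of -11.35 ± 0.88 (SE; edgeR adjusted p = 0.0402). Both connexins thus fell together.

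*Rspo1*, a secreted amplifier of Wnt signals, had 0 tumor reads and 70.7, 152 and 164 CPM in the luminal mice, at least 6034-fold lower in tumors (edgeR adjusted p = 0.044). *Oxtr*, the oxytocin receptor, also had 0 tumor reads and 64.5, 42.1 and 62.7 CPM in the luminal mice, at least 2643-fold lower (edgeR adjusted p = 0.0452). *Cel*, a lipase found in milk, had 1 tumor read and 34.3, 155 and 128 CPM in the luminal mice, and the luminal level was 14888 (95% counting interval 2672 to 588047) times that of the tumors (edgeR adjusted p = 0.0493). *C3*, the central complement protein, remained measurable in tumors. It had 13.8 CPM in BrT1 and 15 in BrT2 against 529, 629.6 and 803 CPM in the luminal mice, a log2 fold change of -5.56 ± 0.53 (SE; edgeR adjusted p = 0.0452). Intervals and floors cover counting error only, since reads without molecular identifiers are not independent molecules.

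**Figure D1:**
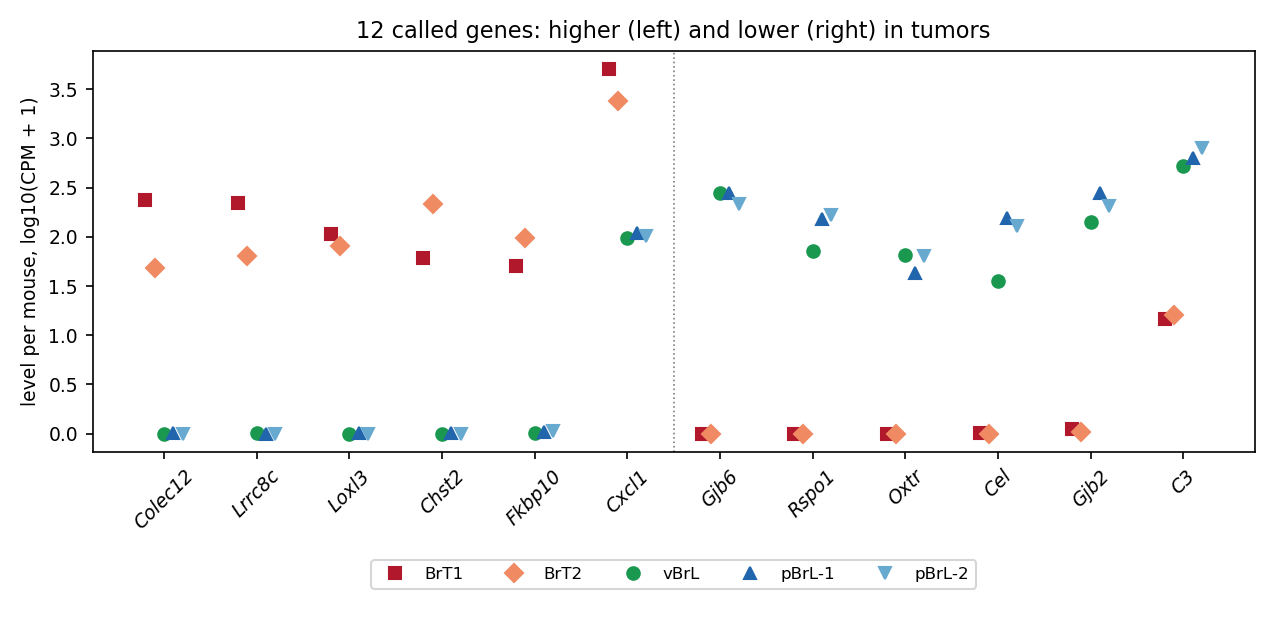
Levels of the 12 called genes in each of the 5 mice, as log10(CPM + 1) on the vertical axis, with 1 marker per mouse and no error bars. Both tumors lie above the 3 luminal mice for the 6 genes on the left and below them for the 6 on the right, and *C3* and *Cxcl1* are the only ones with a clear level in both arms.

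With 2 mice in each arm no gene passed the adjustment. Without vBrL, pBrL-1 or pBrL-2 edgeR called 0 genes, while 1616, 1193 and 1171 had an unadjusted p under 0.05. In these 3 fits the log2 fold change of *Gjb2* was -11.57, -11.09 and -11.41 and that of *Cxcl1* 5.07, 5.15 and 5.07. Without BrT1 138 genes were called, and without BrT2 400, with all 12 among them in both cases, where the lone tumor is assumed to vary like the other mice. DESeq2 called 1126 of 12971 genes (8.68%), all 12 included, whereas limma on means over cells kept 3 of the 12 and edgeR with 30 cells per mouse kept 4.

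The next genes by unadjusted p, all with tumors and luminal mice apart, did not pass the adjustment. On the higher side they were matrix genes and an enzyme. *Fn1*, fibronectin, had 4926 CPM in BrT1 and 6199.9 in BrT2 against 2.37, 11.8 and 1.82 CPM in the luminal mice, with a log2 fold change of 9.96 ± 1.19 (SE; edgeR adjusted p = 0.0718), and a read in all 84 tumor cells. *Acan*, aggrecan of the cartilage matrix, had 88.5 CPM in BrT1 and 53.4 in BrT2 and 0 luminal reads, at least 6199.5-fold higher (edgeR adjusted p = 0.0765). *Ccdc80*, a secreted matrix protein, had 31.4 CPM in BrT1 and 65.8 in BrT2 and 1 luminal read (edgeR adjusted p = 0.0582). *Plcb4*, a phospholipase C, had 128 CPM in BrT1 and 139 in BrT2 against 7.03, 5.16 and 6.44 CPM in the luminal mice (edgeR adjusted p = 0.0682).

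On the lower side *Csn2*, beta-casein, had 2 tumor reads in all, both in BrT2, and 10645, 52124 and 37769.8 CPM in the luminal mice (edgeR adjusted p = 0.0582). *Hsdl2*, a peroxisomal dehydrogenase-like enzyme, had 35.2 CPM in BrT1 and 32.6 in BrT2 against 389, 452 and 438 CPM in the luminal mice (edgeR adjusted p = 0.0688). *Igfals*, a subunit of circulating IGF complexes, had 0 tumor reads and 24.8, 74.2 and 47.6 CPM in the luminal mice, at least 2289-fold lower (edgeR adjusted p = 0.077).

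Looking past the calls, both tumors were above all 3 luminal mice in 2287 of the 13514 genes (16.9%) and below all 3 in 1975 (14.6%). For single tumors these shares were larger. BrT1 was above all 3 luminal mice in 36.9% of the genes and below in 27.2%, and BrT2 was above in 29.6% and below in 30.6%. With a gap of at least 3 on the log2(CPM + 1) scale, 8-fold at levels well over 1 CPM, 114 of 17823 genes with a read (0.64%) were above the highest luminal mouse in both tumors, and 95 (0.533%) were below the lowest in both. The same gap in BrT1 only was seen upward in 206 genes (1.16%) and downward in 0.578%, and in BrT2 only upward in 132 (0.741%) and downward in 51 (0.286%). With the genes that the tumors moved in opposite ways, tumor-specific genes came to 494, and with 1 mouse each they carry no test. They outnumbered the shared ones under unlike rules, since a shared gene needed the gap in both tumors. Among genes high in 1 tumor only, 110 in BrT1 and 66 in BrT2 failed the filter on low counts, against 0 shared ones. The larger number does not show that the tumors differed more than they shared. Without vBrL the shared groups held 176 and 152 genes.

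**Figure D2:**
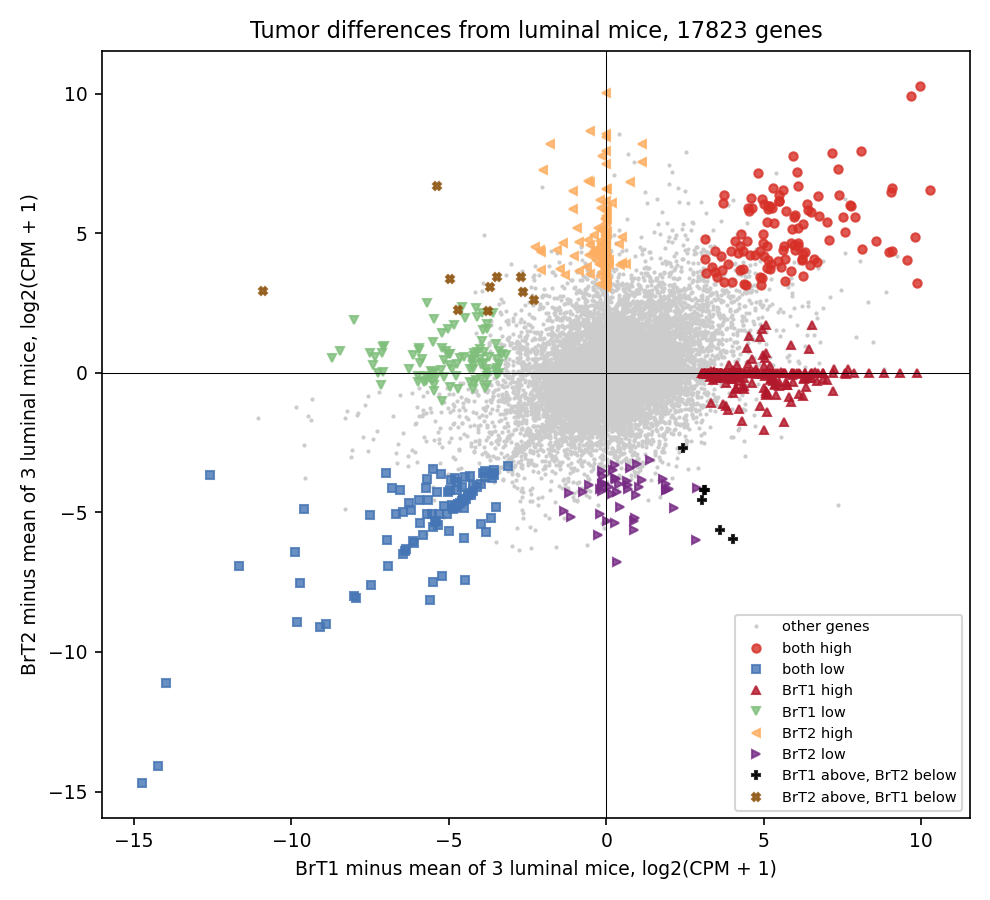
Difference of BrT1 (horizontal) and BrT2 (vertical) from the mean of the 3 luminal mice, in log2(CPM + 1), with 1 point per gene for 17823 genes. Coloured points are the 114 and 95 genes shared by both tumors at the top right and bottom left, the tumor-specific genes along the axes, and the 6 and 10 genes that the tumors moved in opposite ways.

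The MMTV-Cre mice with *Brca1* fl/fl and *Trp53* fl/+ (Br53) gave 2 more tumors and 2 luminal mice, 1 virgin and 1 pregnant, and share no mouse with the comparison. The tumor mouse Br53T2 shared a chip with pBrL-2, and both Br53 luminal mice were on 1 chip. Over the tested genes, both Br53 tumors were above both Br53 luminal mice in 25.7% and below both in 12.5%. Of the 2287 genes above in both *Brca1* tumors, 1005 (43.9%) were also above in Br53 and 4.5% below. Of the 1975 below, 548 (27.7%) were also below and 213 (10.8%) above. Among the called genes 4 of 6 higher ones (*Loxl3*, *Lrrc8c*, *Chst2* and *Fkbp10*) and 4 of 6 lower ones (*Gjb6*, *Rspo1*, *C3* and *Cel*) separated the same way. *Loxl3*, for example, had 67.7 and 0.936 CPM in the Br53 tumors and 0 in the luminal ones, and *Gjb6* had 0 and 3.64 CPM in the Br53 tumors and 22.8 and 320.4 in the Br53 luminal mice. *Cxcl1* overlapped, with 2522 and 217 CPM in the Br53 tumors and 312 and 340.2 in the Br53 luminal mice. The difference between tumor and luminal mice was also tested between these genotypes, which called 1 of 15051 genes (0.00664%), and in this test the adjusted p of the 12 genes was 0.166 to 1 (edgeR).

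Gene lists were then read against these shares, 16.9% above and 14.6% below all 3 luminal mice in both tumors over all genes. Of 30 genes of luminal and epithelial identity, 0 were called, 23 were below all 3 luminal mice in both tumors (76.7%, against 14.6% of all genes) and 0 above. The median log2 fold change was -1.84, against 0.01 over all tested genes. The tumors differed in how far below they were. All 30 genes were below the luminal mice in BrT1, with a median difference of -5.28 on the log2(CPM + 1) scale, and 23 in BrT2, with a median of -0.93. In BrT2 3 members were above every luminal mouse. They were *Krt7*, a simple keratin (115.3 CPM against 33 to 58.7), *Spint2*, a protease inhibitor (357 against 213 to 274), and *Prom1*, a membrane glycoprotein (21.4 against 0.013 to 9.62). *Cdh1*, E-cadherin, had 0 CPM in BrT1 and 244 in BrT2 against 950.4, 504 and 738 CPM in the luminal mice. *Ehf*, an epithelial transcription factor, had 0 CPM in BrT1 and 399.9 in BrT2 against 735, 1115 and 998 CPM in the luminal mice. *Esrp1*, a splicing regulator of epithelia, had 0.011 CPM in BrT1 and 90.5 in BrT2 against 122.6, 267 and 256 CPM in the luminal mice. *Cdh1*, *Ehf* and *Esrp1* had few or no reads in BrT1 and lay below the luminal mice in BrT2.

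Keratins were kept in part. *Krt18* had 315 CPM in BrT1 and 1993 in BrT2 against 3502, 3452 and 3297 CPM in the luminal mice, and *Krt19*, another simple keratin, had 0 CPM in BrT1 and 25.2 in BrT2 against 495, 1055 and 889 CPM in the luminal mice. *Gata3*, the regulator of luminal fate, was lower in both tumors, with 64.4 CPM in BrT1 and 17.8 in BrT2 against 313, 370.3 and 362 CPM in the luminal mice, a log2 fold change of -3.21 ± 0.62 (SE; edgeR adjusted p = 0.143). *Cd24a*, which encodes the antigen used to sort every sample, had 335 CPM in BrT1 and 621 in BrT2 against 1196, 1328 and 1319 CPM in the luminal mice.

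ZEB and SNAIL repressors of epithelial genes bind E-box letters. CAGGTG and CACCTG, the same letters read on either strand, were searched in the 300 bases around gene starts (250 before, 50 after) in the RefSeq promoters of GRCm38.p6. The identity list was chosen with these levels known. Of its 20 genes with an entry, 17 (85%) held at least 1 in a promoter, against 6098 of 27025 genes in the table (22.6%) and 2284 of 10564 tested genes with an entry (21.6%). Among 12 mesenchymal genes with an entry it was 2 (16.7%). A match of letters is a description and shows no binding. The list was picked by hand, and no effect of these repressors on it was tested. The 3 genes above every luminal mouse in BrT2 (*Krt7*, *Spint2* and *Prom1*) also held at least 1 copy in a promoter. *Gata3*, lower in both tumors, held 0. The promoters of *Crb3*, *Cldn7*, *Epcam* and *Rab25* are shown because each holds 2 or more copies and each gene was below the luminal mice in both tumors. The table has a second *Cldn7* promoter, which holds 0 copies and is not shown. The E-box letters are in capitals.
Crb3, chr17:57061951-57062250, plus strand: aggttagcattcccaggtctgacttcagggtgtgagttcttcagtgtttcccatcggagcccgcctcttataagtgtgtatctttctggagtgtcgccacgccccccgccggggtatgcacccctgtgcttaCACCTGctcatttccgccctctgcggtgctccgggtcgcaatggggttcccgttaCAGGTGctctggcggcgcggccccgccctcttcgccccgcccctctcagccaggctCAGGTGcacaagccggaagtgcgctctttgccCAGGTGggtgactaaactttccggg
Cldn7, chr11:69965171-69965470, plus strand: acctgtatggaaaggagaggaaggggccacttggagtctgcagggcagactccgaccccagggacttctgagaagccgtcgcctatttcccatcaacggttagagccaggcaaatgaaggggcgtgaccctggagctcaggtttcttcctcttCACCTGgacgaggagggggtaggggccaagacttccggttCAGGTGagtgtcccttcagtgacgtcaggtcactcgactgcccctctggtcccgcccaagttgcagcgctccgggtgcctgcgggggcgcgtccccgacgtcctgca
Epcam, chr17:87635729-87636028, plus strand: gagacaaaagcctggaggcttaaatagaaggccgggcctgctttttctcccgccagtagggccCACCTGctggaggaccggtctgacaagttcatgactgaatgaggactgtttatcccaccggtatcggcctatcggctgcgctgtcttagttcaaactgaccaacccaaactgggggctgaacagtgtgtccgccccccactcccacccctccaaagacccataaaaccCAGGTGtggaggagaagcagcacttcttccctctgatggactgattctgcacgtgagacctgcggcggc
Rab25, chr3:88548230-88548529, minus strand: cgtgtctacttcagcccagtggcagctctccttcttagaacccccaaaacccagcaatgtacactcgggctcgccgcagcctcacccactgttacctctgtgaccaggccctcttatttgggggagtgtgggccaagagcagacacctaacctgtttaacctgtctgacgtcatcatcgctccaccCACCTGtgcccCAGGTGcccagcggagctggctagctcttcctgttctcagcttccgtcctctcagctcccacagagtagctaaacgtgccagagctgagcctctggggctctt

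*Crb3*, a polarity protein of the apical membrane, had 0 CPM in BrT1 and 9.1 in BrT2 against 17.8, 32.6 and 19.6 CPM in the luminal mice. *Cldn7*, a claudin of tight junctions, had 2.2 CPM in BrT1 and 60.02 in BrT2 against 144, 252 and 257 CPM in the luminal mice. *Epcam*, an adhesion molecule of epithelia, had 19.2 CPM in BrT1 and 856 in BrT2 against 1325, 1064 and 1341 CPM in the luminal mice, with a read in 5 of 47 BrT1 cells and 34 of 37 BrT2 cells. *Rab25*, a small GTPase of epithelial recycling, had 0 CPM in BrT1 and 89.8 in BrT2 against 168, 127 and 149 CPM in the luminal mice.

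Mesenchymal genes went the other way. Of 22 such genes, 16 passed the filter on low counts, a filter that a gene high in the tumors alone can pass. Of these, 12 were above all luminal mice in both tumors and 1 below (75% and 6.25%, against 16.9% and 14.6% of all genes), with a median log2 fold change of 7.23. None was called by edgeR (0, with 12 at an unadjusted p under 0.05 and 13 called by DESeq2). *Vim*, the intermediate filament vimentin, had 4079.8 CPM in BrT1 and 306 in BrT2 against 0.159, 8.9 and 2.05 CPM in the luminal mice. *Zeb1*, a repressor, had 291 CPM in BrT1 and 21.5 in BrT2 and at most 0.0866 CPM in a luminal mouse, and was read in all 47 BrT1 cells and 9 of 37 BrT2 cells (24.3%, exact 95% interval 11.8 to 41.2%). Its log2 fold change was 11.72 ± 1.75 (SE; edgeR adjusted p = 0.0998). *Snai1* was similar in both tumors, with 20.9 CPM in BrT1 and 25.6 in BrT2 and 1 luminal read. *Twist1* had 49.7 CPM in BrT1 and 8.88 in BrT2 and *Prrx1* had 107.3 CPM in BrT1 and 0.28 in BrT2, with at most 2 luminal reads each. *Axl*, a receptor kinase, had 473 CPM in BrT1 and 48 in BrT2 against 6.07, 0.112 and 0.909 CPM in the luminal mice. *Sparc*, a matrix protein, had 855 CPM in BrT1 and 386 in BrT2 against 60.2, 91.8 and 4.95 CPM in the luminal mice. Most of these genes were thus higher in BrT1 than in BrT2, and *Snai1* was not. *Cdh11*, a cadherin of mesenchymal cells, was the member below, at 0.144 CPM in BrT1 and 0.28 in BrT2 against 0.289, 10.2 and 6.98 CPM in the luminal mice.

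Of 22 collagen genes, 18 passed the filter, 12 were above the luminal mice in both tumors and 0 below (66.7% and 0%, against 16.9% and 14.6% of all genes), with a median log2 fold change of 3.38. Collagens high in the tumors alone can pass this filter. The amount of several collagens differed between the tumors. The microfibril collagen *Col6a1* had 1271 CPM in BrT1 and 27.5 in BrT2, and *Col18a1* of basement membranes had 734 CPM in BrT1 and 28.1 in BrT2. The cartilage collagens *Col2a1*, with 0.331 CPM in BrT1 and 384 in BrT2, and *Col11a1*, with 3 CPM in BrT1 and 578 in BrT2, were high in BrT2. Luminal mice had at most 1.96 CPM of *Col18a1*, 1.63 of *Col6a1*, 0.0289 of *Col2a1* and 2.97 of *Col11a1*. The basement membrane chains *Col4a1* and *Col4a2* were closer. *Col4a1* had 116.2 CPM in BrT1 and 207 in BrT2 against 2.45, 45.3 and 0.844 CPM in the luminal mice, and *Col4a2* had 168 CPM in BrT1 and 128 in BrT2 against 14.2, 34.2 and 0.389 CPM in the luminal mice. Fibrillar *Col1a2* had 466 CPM in BrT1 and 0.12 in BrT2 and *Col1a1* had 20.4 CPM in BrT1 and 0 in BrT2, and both were near 0 in luminal mice.

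Of 36 matrix and remodelling genes, 28 passed the filter, which genes high in the tumors alone can pass. *Loxl3* was called, and the median log2 fold change was 5.45. In both tumors 19 were above the luminal mice and 0 below (67.9% and 0%, against 16.9% and 14.6% of all genes). *P4ha1*, a prolyl hydroxylase of collagen, had 343 CPM in BrT1 and 227 in BrT2 against 7.17, 3.12 and 0.96 CPM in the luminal mice (edgeR adjusted p = 0.0998). *Fbln2*, fibulin of the basement membrane, had 480.0 CPM in BrT1 and 445 in BrT2 against 0.289, 3.13 and 0.0779 CPM in the luminal mice. *Mmp2*, a matrix metalloproteinase, had 178 CPM in BrT1 and 169 in BrT2 and at most 0.286 CPM in a luminal mouse. *Mrc2*, a collagen uptake receptor, had 17.8 CPM in BrT1 and 11.8 in BrT2 and 0 luminal reads, with reads in 12 of 47 BrT1 cells and 8 of 37 BrT2 cells. These 4 were at comparable levels in the tumors. *Dcn*, decorin, was not shared, with 4356 CPM in BrT1 and 0 in BrT2 against 711, 25.4 and 0.026 CPM in the luminal mice. The arms overlapped at *Dcn*, as every luminal mouse was above BrT2 and below BrT1. The part of fibroblast cells or their RNA in the BrT1 levels of *Dcn* and *Col1a2* was not tested.

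**Figure D3:**
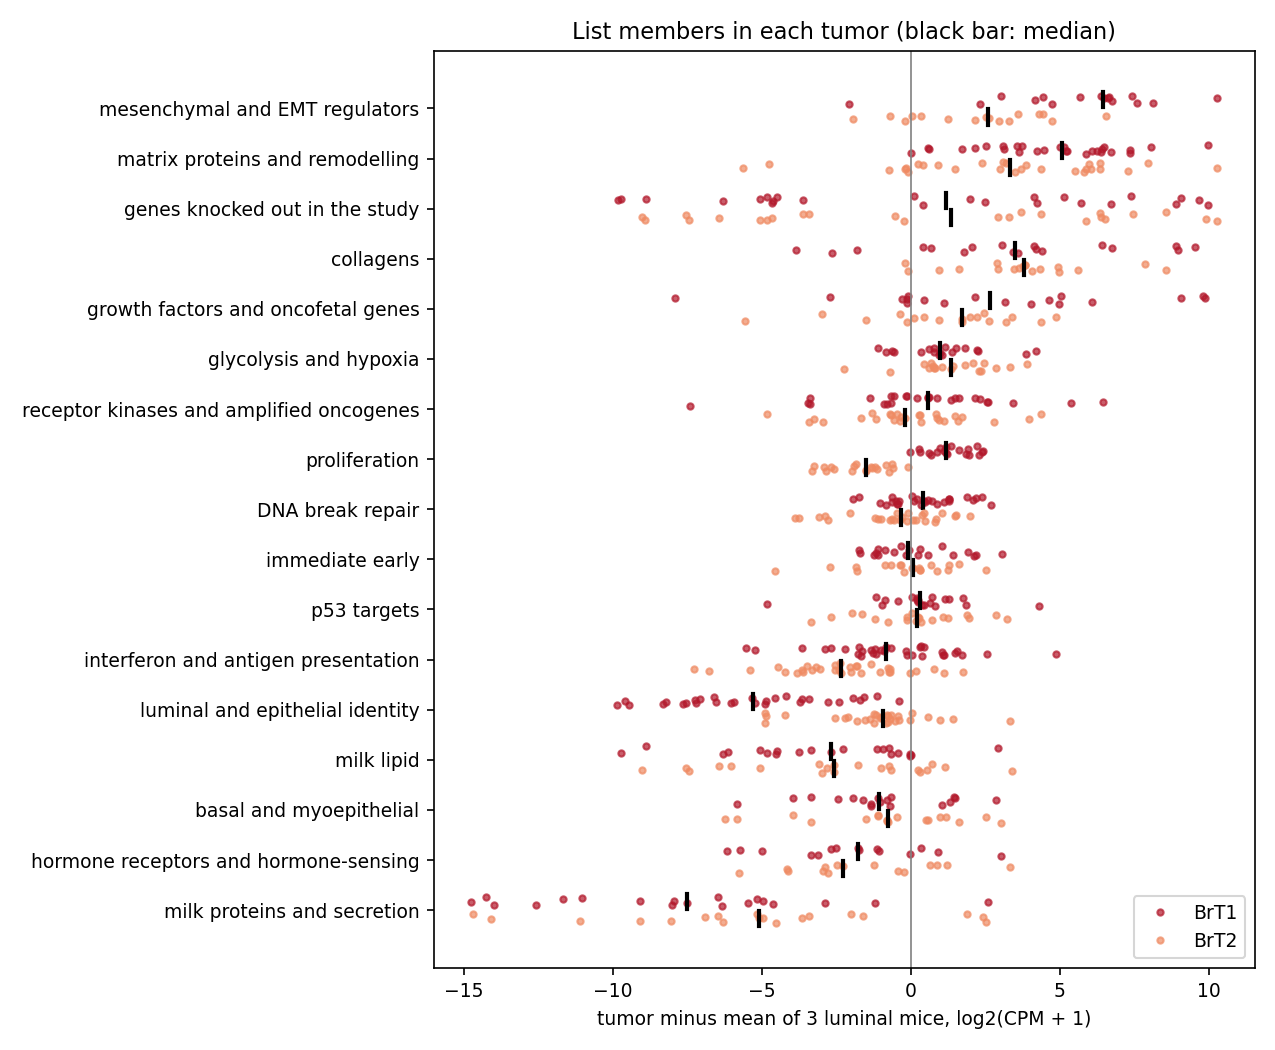
Members of 17 gene lists in BrT1 and BrT2, each as the difference from the mean of the 3 luminal mice in log2(CPM + 1) on the horizontal axis, with 1 point per gene that passed the filter and black bars at the medians. Matrix and mesenchymal lists lie to the right and milk and identity lists to the left in both tumors, while proliferation lies on opposite sides.

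Milk genes were mostly below the luminal mice in both tumors. Of 19 milk protein and secretion genes, *Cel* was called, and the median log2 fold change was -8.40. In both tumors 14 were below all luminal mice and 1 was above (73.7% and 5.26%, against 14.6% and 16.9% of all genes). *Csn3*, kappa-casein, had 4.39 CPM in BrT1 and 3731 in BrT2 against 6954, 16219 and 13252 CPM in the luminal mice. *Wfdc18*, a whey-type protein, had 1.62 CPM in BrT1 and 1279.8 in BrT2 against 11602, 18502 and 19255 CPM in the luminal mice. Some members were high in BrT2 alone. *Mfge8*, a milk fat globule protein, had 379 CPM in BrT1 and 4993 in BrT2 against 838, 1012 and 789 CPM in the luminal mice. The member above was *Spp1*, osteopontin, with 6417 CPM in BrT1 and 5715 in BrT2 against 91.5, 3662 and 3591 CPM in the luminal mice. Counted against vBrL alone, 14 members were below and 1 above, where 30.9% of all genes were below and 35.4% above.

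Of 21 milk lipid genes, 13 were below and 1 above (61.9% and 4.76%, against 14.6% and 16.9% of all genes), with a median of -1.92. *Cd36*, a fatty acid receptor, had 0.0773 CPM in BrT1 and 0 in BrT2 against 72.7, 1763 and 1057 CPM in the luminal mice. *Lpin1*, an enzyme of triglyceride synthesis, had 25.1 CPM in BrT1 and 84.7 in BrT2 against 459, 1326 and 647 CPM in the luminal mice. *Xdh*, needed for milk fat secretion, had 37.2 CPM in BrT1 and 39.2 in BrT2 against 148, 312 and 307 CPM in the luminal mice (edgeR adjusted p = 0.142). Of the desaturases, *Scd2* was above, with 198 CPM in BrT1 and 277 in BrT2 against 55.4, 36.2 and 7.57 CPM in the luminal mice, while *Scd1* had 117.6 CPM in BrT1 and 602 in BrT2 against 609, 2126 and 1363 CPM in the luminal mice. *Scd1* counts as below by a small margin in BrT2, which ends with TMM scaling, where 12 members were below.

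Of 15 hormone receptor and hormone-sensing genes, 7 were below and 0 above (46.7% and 0%, against 14.6% and 16.9% of all genes, median -2.73). *Esr1*, the estrogen receptor, had 1.36 CPM in BrT1 and 12.4 in BrT2 against 184, 47.8 and 46.2 CPM in the luminal mice, and *Prlr*, the prolactin receptor, had 3.62 CPM in BrT1 and 47.7 in BrT2 against 1245, 162 and 182 CPM in the luminal mice. *Stat5a*, which carries the prolactin signal, had 12.9 CPM in BrT1 and 23.9 in BrT2 against 133, 122.7 and 102.4 CPM in the luminal mice (edgeR adjusted p = 0.172). The luminal level differed with stage. The summed level was 4415 CPM in the virgin mouse and 436 and 525 in the pregnant ones, against 213 in BrT1 and 198 in BrT2. Against vBrL alone 13 of 15 were below, where 30.9% of all genes were. Against the pregnant mice 7 were below and 3 above, where 22% of all genes were below and 23% above.

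Genes of interferon response and antigen presentation lay below the luminal mice in both tumors or overlapped. Of 33 tested, 15 were below all luminal mice in both tumors (45.5%, against 14.6%) and 0 above, with a median log2 fold change of -1.48, and 0 were called by edgeR, with 9 at an unadjusted p under 0.05 and 8 called by DESeq2. The class I presentation genes were among those below. *H2-K1*, a class I heavy chain, had 463 CPM in BrT1 and 384 in BrT2 against 1364, 1907 and 1550.5 CPM in the luminal mice, with an edgeR adjusted p = 0.197. *B2m*, its light chain, had 2181 CPM in BrT1 and 1361 in BrT2 against 6892, 3958 and 3027 CPM in the luminal mice. *Tap1*, of the peptide transporter, had 9.46 CPM in BrT1 and 18.4 in BrT2 against 70.2, 74.4 and 56.5 CPM in the luminal mice. The immunoproteasome subunit *Psmb9* had 17.2 CPM in BrT1 and 8.62 in BrT2 against 44.9, 58.7 and 64.5 CPM in the luminal mice. *Irf1*, an interferon-induced factor, had 394 CPM in BrT1 and 131 in BrT2 against 77.3, 108.2 and 289 CPM in the luminal mice. In the Br53 mice *H2-K1* had 1685 and 1523 CPM in the Br53 tumors and 2176 and 2992 in the Br53 luminal mice, also apart, whereas *Tap1* overlapped. Immune cell markers summed to 2.37 and 0.16 CPM in the tumors and 72.6, 9.12 and 14.3 in the luminal mice, and their part in the class II genes was not tested. Hematopoietic cells had been depleted before the sort.

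Of 19 glycolysis and hypoxia genes, 14 were above all luminal mice in both tumors and 2 below (73.7% and 10.5%, against 16.9% and 14.6% of all genes), with a median of 1.01. With milk genes left out of the totals 10 were above, as were 1932 of the 13514 genes. *Pkm*, pyruvate kinase, had 993 CPM in BrT1 and 1178 in BrT2 against 296, 276 and 265 CPM in the luminal mice, a log2 fold change of 1.90 ± 0.40 (SE; edgeR adjusted p = 0.172). *Aldoa*, aldolase, had 1109 CPM in BrT1 and 1894 in BrT2 against 284, 517 and 409.7 CPM in the luminal mice. *Adm*, a hypoxia-induced peptide hormone, had 129.5 CPM in BrT1 and 134 in BrT2 against 6.39, 11.1 and 7.11 CPM in the luminal mice, with the lowest adjusted p of the list (edgeR adjusted p = 0.0862). *Slc2a1*, the glucose transporter, was one of the members below, with 86.8 CPM in BrT1 and 82.7 in BrT2 against 90.01, 171 and 156 CPM in the luminal mice.

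The tumors lay on opposite sides of the luminal mice in proliferation genes. Of 20 genes, 17 were above all luminal mice in BrT1, where 36.9% of all genes were, and 16 below all in BrT2, where 30.6% were. None (0) separated both tumors from all 3 luminal mice in either direction. Against vBrL alone both tumors were above in 3 and below in 2, where 35.4% and 30.9% of all genes were. The summed level was 3954 CPM in BrT1, 463 in BrT2 and 1358, 1300.4 and 2072 in the luminal mice. *Cdk1*, the mitotic kinase, had 432 CPM in BrT1 and 25.1 in BrT2 against 62.2, 75.7 and 165 CPM in the luminal mice, and was read in 33 of 47 BrT1 cells and 8 of 37 BrT2 cells. *Mki67*, a marker of cycling cells, had 183 CPM in BrT1 and 14.1 in BrT2 against 126, 162 and 164 CPM in the luminal mice.

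Of 28 DNA break repair genes 3 were above and 2 below (median 0.13), where 16.9% and 14.6% of all genes were. These counts became 2 and 4 with TMM scaling, 2 and 6 with milk genes left out and 7 and 9 against vBrL alone, where 35.4% of all genes were above and 30.9% below. Of 20 p53 targets 4 were above and 3 below (median 0.09), or 10 and 5 against vBrL alone. Of 20 immediate early genes 3 were above and 2 below (median 0.10), or 1 and 3 with milk genes left out and 6 and 5 against vBrL alone. None of the 3 lists had a called gene, with 0, 2 and 3 at an unadjusted p under 0.05 (edgeR), and DESeq2 called 0, 1 and 3. *Trp53* itself, added after its values were seen, had 5.05 CPM in BrT1 and 49.8 in BrT2 against 92.5, 413 and 515 CPM in the luminal mice, and its target *Mdm2* had 71.5 CPM in BrT1 and 19.8 in BrT2 against 151, 116.8 and 129 CPM in the luminal mice. *Cdkn1a*, the p53-induced cell cycle inhibitor, overlapped, with 94.5 CPM in BrT1 and 85.1 in BrT2 against 75.6, 87 and 120.4 CPM in the luminal mice. *Fosl2* and *Klf6* were the immediate early genes below, *Klf6* with 2082 CPM in BrT1 and 1287 in BrT2 against 4656, 4370.0 and 4499 CPM in the luminal mice, and *Ier3* was among those above, with 304 CPM in BrT1 and 406 in BrT2 against 31.5, 108.8 and 96.8 CPM in the luminal mice.

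Of 18 growth factor and oncofetal genes that passed the filter, of 23 listed, 7 were above and 3 below (38.9% and 16.7%, against 16.9% and 14.6% of all genes), with a median of 2.54. *Igf2*, a fetal growth factor, had 992 CPM in BrT1 and 8.82 in BrT2 and at most 0.208 CPM in a luminal mouse, with reads in all 47 BrT1 cells and 2 of 37 BrT2 cells. *Hmga2*, a fetal chromatin protein, had 589.8 CPM in BrT1 and 21.9 in BrT2 and at most 0.332 CPM in a luminal mouse, and *Igfbp4*, an IGF binding protein, had 996 CPM in BrT1 and 32.1 in BrT2. The last was read in all 47 BrT1 cells and 12 of 37 BrT2 cells, and luminal mice had at most 0.207 CPM of it (edgeR adjusted p = 0.0862). *Igf2r*, which clears IGF2, was higher in BrT2, with 113.6 CPM in BrT1 and 518 in BrT2 against 95.9, 81.5 and 72.4 CPM in the luminal mice. *Igf2*, *Hmga2* and *Igfbp4* were thus higher in BrT1, and *Igf2r* in BrT2.

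Of 27 receptor kinases and amplified oncogenes 7 were above and 4 below (median 0.25), shares of 25.9% and 14.8% against 16.9% and 14.6% of all genes. *Fgfr1*, a receptor of fibroblast growth factors, had 392 CPM in BrT1 and 1034 in BrT2 against 59.5, 49 and 93 CPM in the luminal mice, a log2 fold change of 3.40 ± 0.60 (SE; edgeR adjusted p = 0.129), and was read in all 84 tumor cells. *Egfr* had 29.7 CPM in BrT1 and 82 in BrT2 against 9.2, 25 and 5.62 CPM in the luminal mice, and *Ccnd1*, cyclin of the G1 phase, had 336 CPM in BrT1 and 197 in BrT2 against 130.3, 116.9 and 85.9 CPM in the luminal mice. *Erbb3* was not shared, with 0.155 CPM in BrT1 and 241 in BrT2 against 139, 256 and 209.9 CPM in the luminal mice. *Myc* overlapped, with 332 CPM in BrT1 and 169 in BrT2 against 135, 262 and 299 CPM in the luminal mice.

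The study knocked out 27 genes in a screen, of which 24 passed the filter here. Both tumors were above the luminal mice in 12 and below in 10 (50% and 41.7%, against 16.9% and 14.6% of all genes). But the study chose these genes in part on the same cells, so the counts are not independent evidence. *Cpe*, carboxypeptidase E, had 1295 CPM in BrT1 and 1514 in BrT2 against 0, 0.00863 and 2.93 CPM in the luminal mice, and *Slc28a3*, a nucleoside transporter, had 0 CPM in BrT1 and 0.862 in BrT2 against 442, 1358 and 1255 CPM in the luminal mice. Of 18 basal and myoepithelial genes 2 were above and 4 below (11.1% and 22.2%, against 16.9% and 14.6%). Of these 18, *Oxtr*, given above, was called lower by edgeR, and DESeq2 called 3. Against the pregnant mice alone 4 were above and 9 below, where 23% and 22% of all genes were. Against vBrL alone 5 were above and 4 below, where 35.4% and 30.9% of all genes were. *Itgb1*, which encodes CD29, had 602 CPM in BrT1 and 493 in BrT2 against 307, 179 and 192 CPM in the luminal mice, and the luminal gate selected low CD29. *Acta2*, of contractile myoepithelium, had 1 tumor read and 0.332, 248 and 10.4 CPM in the luminal mice.

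Tumor-specific genes were named by the size of the gap to the nearest luminal mouse among genes read in at least 50% of the cells. Of 206 genes high in BrT1 only, 61 met this and 110 did not pass the filter for the test between arms. The 8 with the largest gap that met the rule are given here. *Htra1*, a secreted protease, had 944 CPM in BrT1 and 0 in BrT2 and 4 luminal reads, was read in all 47 BrT1 cells and exceeded the highest luminal mouse by 9.84 on the log2(CPM + 1) scale. *Pcdh19*, a protocadherin, had 634 CPM in BrT1 and 0 in BrT2, and *Brinp3*, known from neurons, had 454 CPM in BrT1 and 0 in BrT2, each read in 46 of 47 BrT1 cells. *H19*, the imprinted RNA beside *Igf2*, had 322 CPM in BrT1 and 0 in BrT2 and was read in 36 of 47 BrT1 cells. *Il1rl1*, an interleukin receptor, had 231 CPM in BrT1 and 0 in BrT2. *Tgfbi*, an adhesive matrix protein, had 198 CPM in BrT1 and 0 in BrT2. *Loxl1*, a lysyl oxidase like *Loxl3*, had 188 CPM in BrT1 and 0 in BrT2, and *Dkk2*, a Wnt modulator, had 145 CPM in BrT1 and 0 in BrT2. All 8 had 0 reads in BrT2, and their gaps were 7.15 to 9.84.

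Of the genes low in BrT1 only, 25 were read in at least 50% of the cells of the lowest luminal mouse. *Lcn2*, a siderophore-binding defense protein, had 0.011 CPM in BrT1 and 14692 in BrT2 against 1789, 2374 and 1717 CPM in the luminal mice, so BrT1 was 10.73 below the lowest luminal mouse on the log2 scale and BrT2 was above the highest. *Xist*, the RNA that coats the inactive X chromosome, had 0 CPM in BrT1 and 606 in BrT2 against 524, 375 and 381 CPM in the luminal mice, and was read in 0 of 47 BrT1 cells (taking 3 cells as what a count of 0 allows, a share of up to 6.38% of cells with a read) and 35 of 37 BrT2 cells. *Trf*, transferrin, had 3.49 CPM in BrT1 and 4304 in BrT2 against 585, 1912 and 1371 CPM in the luminal mice. *Fxyd3*, a regulator of the sodium pump, had 0.0221 CPM in BrT1 and 304 in BrT2 against 129.9, 215 and 226 CPM in the luminal mice. *Pglyrp1*, which recognises bacterial cell walls, had 0.0442 CPM in BrT1 and 234 in BrT2 against 149.8, 124 and 162 CPM in the luminal mice. *Kit*, a receptor kinase of luminal progenitors, had 0.188 CPM in BrT1 and 177 in BrT2 against 191, 139 and 220.3 CPM in the luminal mice. *Smim10l1* and *Urah* had 0 reads in BrT1, 606 and 139 CPM in BrT2 and 242 to 479 and 127 to 144 CPM in luminal mice.

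Of 132 genes high in BrT2 only, 32 were read in at least 50% of BrT2 cells. *Dcpp1*, a secreted protein known from salivary glands, had 0 CPM in BrT1 and 1047 in BrT2 and 0 luminal reads, a gap of 10.03, and was read in 25 of 37 BrT2 cells. *Comp*, a cartilage matrix protein, had 0 CPM in BrT1 and 377 in BrT2 and *Chl1*, a cell adhesion molecule, had 0 CPM in BrT1 and 345 in BrT2, also with 0 luminal reads. *Gpx2*, a glutathione peroxidase of epithelia, had 0.0221 CPM in BrT1 and 596 in BrT2 against 0, 0.0259 and 2.02 CPM in the luminal mice. *Apod*, an apolipoprotein, had 0 CPM in BrT1 and 997 in BrT2 against 3.13, 0.25 and 6.84 CPM in the luminal mice. *Sparcl1*, a matrix protein, had 3.1 CPM in BrT1 and 2546 in BrT2 against 10.3, 21.5 and 16.8 CPM in the luminal mice and was read in all 37 BrT2 cells. *Gpc3*, a glypican, had 0.353 CPM in BrT1 and 320.2 in BrT2 against 0, 2.3 and 0 CPM in the luminal mice.

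Of 51 genes low in BrT2 only, 2 met the rule on cells. *Met*, the receptor of hepatocyte growth factor, had 302 CPM in BrT1 and 1.4 in BrT2 against 122.9, 92.7 and 27.1 CPM in the luminal mice, and was read in 42 of 47 BrT1 cells and 4 of 37 BrT2 cells (10.8%, exact 95% interval 3.03 to 25.4%). *Mast4*, a kinase, had 726 CPM in BrT1 and 37.4 in BrT2 against 309.9, 429 and 371 CPM in the luminal mice. Few genes read in most luminal cells were thus low in BrT2 alone.

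Opposite moves were counted with a smaller gap. In 6 genes (0.0337%) BrT1 was at least 2 above the highest luminal mouse on the log2 scale, 4-fold, and BrT2 at least 2 below the lowest, and without pBrL-1 this was so in 12. *Vcam1*, an adhesion molecule, had 1006 CPM in BrT1 and 0 in BrT2 against 52.8, 34.8 and 127 CPM in the luminal mice. *Timp2*, an inhibitor of metalloproteinases, had 1151 CPM in BrT1 and 0.882 in BrT2 against 155, 102.5 and 50.5 CPM in the luminal mice. *Fosl1*, a subunit of AP-1, had 439.8 CPM in BrT1 and 1.28 in BrT2 against 75.4, 36.8 and 51.2 CPM in the luminal mice. *Top2a*, the topoisomerase of cycling cells, had 1109 CPM in BrT1 and 31.4 in BrT2 against 244, 141 and 256 CPM in the luminal mice. *St3gal1*, a sialyltransferase, and *Ltbp2*, a latent TGF-beta binding protein, had 163 and 155 CPM in BrT1 and 0 reads in BrT2, with luminal levels of 15.5 to 21.2 and 8.22 to 28.9 CPM.

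The opposite was seen in 10 genes (0.0561%), and in 25, 18 and 16 without vBrL, pBrL-1 and pBrL-2. *Chil1*, a chitinase-like secreted protein, had 0 CPM in BrT1 and 4292 in BrT2 against 179, 19.9 and 18.5 CPM in the luminal mice. *Thbs1*, thrombospondin of the matrix, had 53.2 CPM in BrT1 and 3819 in BrT2 against 315, 412 and 346 CPM in the luminal mice. *Lbp*, which binds lipopolysaccharide, had 5.08 CPM in BrT1 and 666 in BrT2 against 60.03, 110.7 and 71.8 CPM in the luminal mice. The collagen gene *Col9a2* had 0.386 CPM in BrT1 and 164 in BrT2 against 9.46, 16.5 and 18.9 CPM in the luminal mice, and *P3h2*, a collagen prolyl hydroxylase, had 0.0221 CPM in BrT1 and 328 in BrT2 against 18.1, 36.8 and 45.5 CPM in the luminal mice. *Mansc1*, a membrane protein, had 1.37 CPM in BrT1 and 149 in BrT2 against 34.4, 29.7 and 29.4 CPM in the luminal mice. The transcript of the ROSA locus that carries the reporter, *Gt(ROSA)26Sor*, had 2.27 CPM in BrT1 and 97.7 in BrT2 against 12.4, 16.1 and 17.4 CPM in the luminal mice. *Lcn2*, given above, was also among the 10.

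Levels near the limits of these groups form no gap. At the limit of 3, *Cdk20* was just inside the genes high in BrT1, with a gap of 3.00, and *Cep170* just outside, with 2.99. For genes high in BrT2 they were *Dnah1*, with 3.03, and *Ccdc187*, with 3.00. For the low groups they were *Ccser1* and *Vmac* in BrT1 (3.00 and 2.98) and *Zc3h12c* and *Dmxl2* in BrT2 (3.00 and 2.92).

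**Figure D4:**
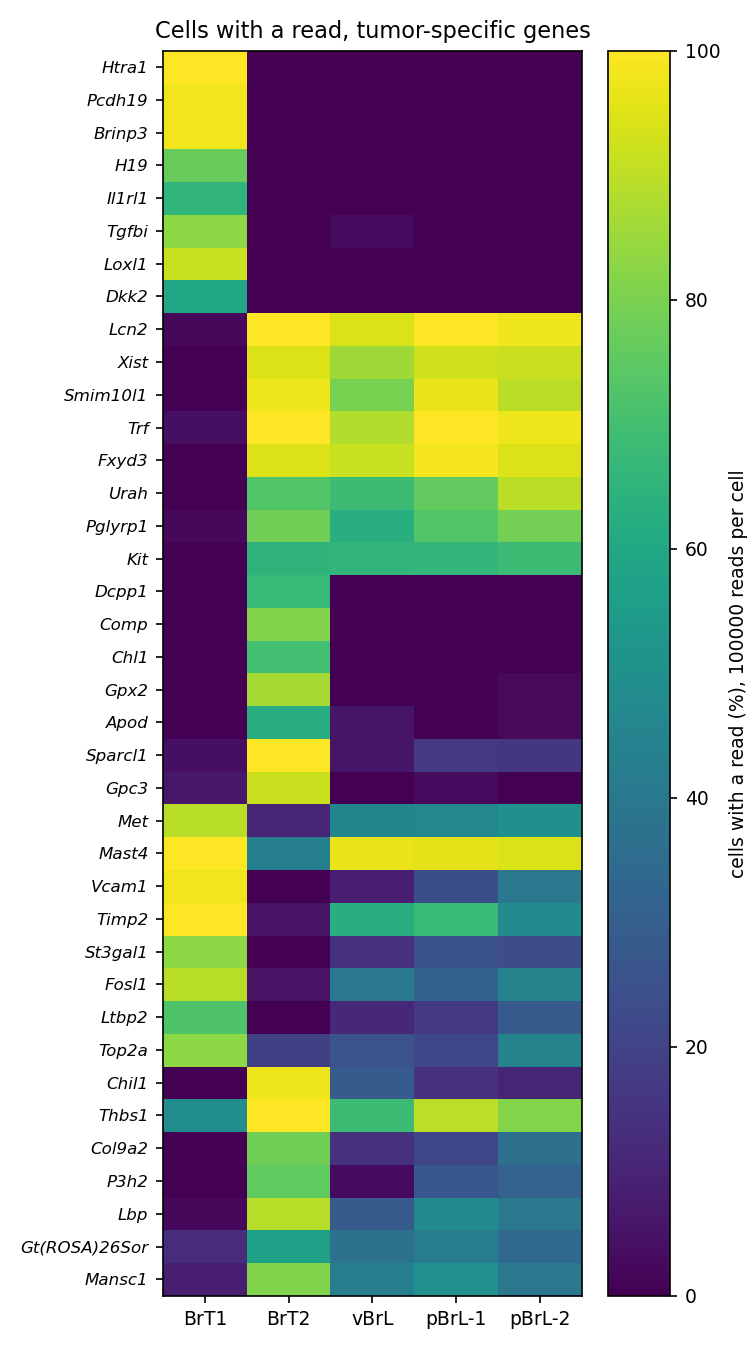
Percent of cells with a read (colour, 0 to 100%) of the named tumor-specific genes, 1 row per gene and 1 column per mouse, after thinning each cell to 100000 reads. Genes high in BrT1 only (top) and genes such as *Comp* and *Dcpp1* are read in most cells of 1 tumor and in almost no cell of the other 4 mice, and the genes from *Lcn2* to *Kit* are read in few or no cells of BrT1 alone.

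Differences were also averaged by chromosome. The mean difference from the luminal mice, in log2(CPM + 1) over the tested genes of a chromosome, ran among autosomes in BrT1 from -0.38 on chromosome 7 and -0.29 on chromosome 16 to 0.49 on chromosome 8 and 0.52 on chromosome 3. In BrT2 it ran from -0.52 on chromosome 4 and -0.47 on chromosome 13 to 0.39 on chromosome 6. The tumors lay on opposite sides of 0 on, for example, chromosomes 10 (0.34 and -0.32), 11 (0.31 and -0.20) and 13 (0.33 and -0.47). Tumor-specific genes were then counted per chromosome, each share beside that of all genes with a read. Of the genes high in BrT1 only, 17 (8.29% against 4.98%) were on chromosome 3, 17 (8.29% against 5.95%) on chromosome 1 and 12 (5.85% against 3.73%) on chromosome 13. Of the genes low in BrT1 only, 15 (14.6% against 8.15%) were on chromosome 7 and 12 (11.7% against 5.95%) on chromosome 1, where the BrT1 mean was 0.08. Of the genes high in BrT2 only, 18 (13.6% against 6.19%) were on chromosome 5, 10 (7.58% against 3.41%) on chromosome 14 and 10 (7.58% against 5.11%) on chromosome 6. Of the genes low in BrT2 only, 8 (15.7% against 4.98%) were on chromosome 3, where the BrT2 mean was 0.12, 7 (13.7% against 8.07%) on chromosome 11 and 6 (11.8% against 6.14%) on chromosome 4. In most of these pairs the mean of the chromosome lay on the same side of 0 as the group. The exceptions were chromosome 1 for genes low in BrT1 and chromosome 3 for genes low in BrT2. Over all tested genes the median difference was 0.14 in BrT1 and -0.08 in BrT2. On the X chromosome, which in BrT1 came with 0 reads of *Xist*, the mean difference was 0.52 in BrT1 and 0.33 in BrT2. These values are descriptions of 1 mouse each and have no test, and DNA copy number was not analysed here.

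**Figure D5:**
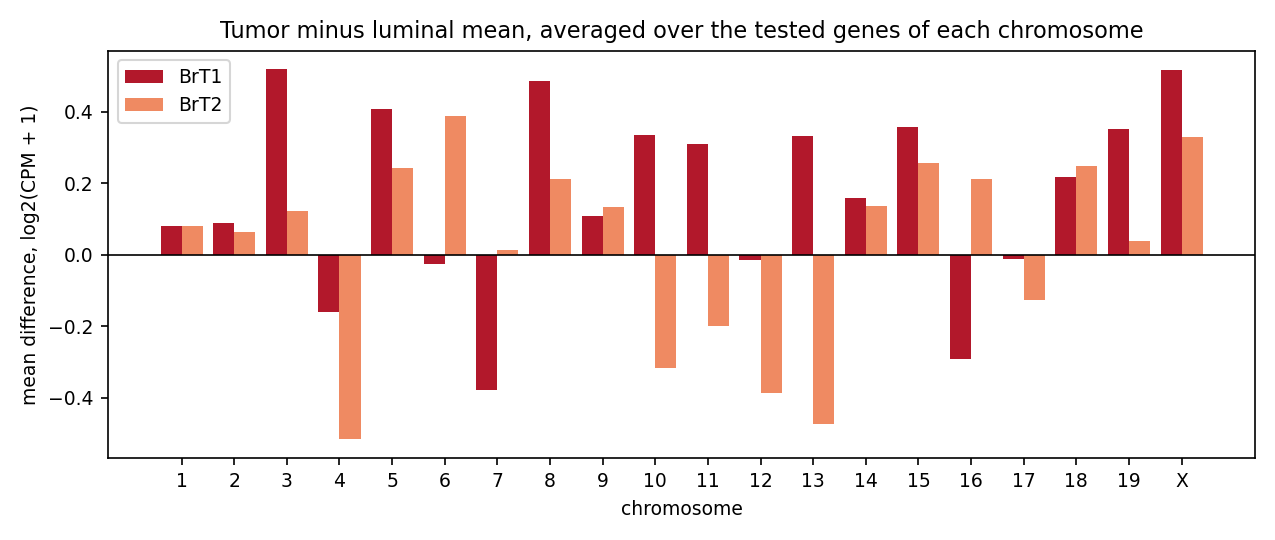
Mean difference of BrT1 and BrT2 from the mean of the 3 luminal mice, in log2(CPM + 1), with 1 pair of bars per chromosome, each averaged over the tested genes of that chromosome and drawn from 0. Chromosome 7 is lowest in BrT1 and chromosome 4 in BrT2, and chromosomes 10, 11, 13 and 16 are among those that differ in sign between the tumors.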

How the data were processed

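Single luminal and tumor cells were captured on Fluidigm C1 chips, made into full-length cDNA and sequenced. The authors deposited 1 table of raw read counts of 21004 genes per cell, without molecular identifiers. The submitters' processing notes name Trim Galore 0.4.1, STAR 2.5.3a, Subread 1.5.3 and the build mm10. The gene annotation and strand setting of the counting are not given in the sources used here. Counts were summed per mouse, since the mouse is the replicate, and the 2 tumor mice were tested against the 3 luminal mice with edgeR 4.0.16 in R 4.3.3 (filterByExpr, TMM, quasi-likelihood test, Benjamini-Hochberg adjusted p under 0.05). DESeq2 1.42.0 and limma 3.58.1 were alternatives. The fits were tested on simulated data, where edgeR at the spread of these mice recovered none of the strongly changed genes, so a gene not called is not shown to be alike. CPM were taken from summed counts and library size. Gene positions on GRCm38 came from GENCODE vM21 and promoters from RefSeq.

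Named genes were non-overlapping ones whose higher arm averaged 10 CPM or more, called genes first and then by unadjusted p, up to 10 in each direction, without gene models. For tumor-specific genes, a tumor lay at least 3 beyond the luminal range on log2(CPM + 1) and the other tumor not beyond it on that side, or the tumors lay at least 2 beyond it in opposite directions. Up to 8 per group were named, by gap, if at least 50% of cells had a read after thinning each cell to 100000 reads. The groups shared by both tumors were added after values were seen. The comparison, the lists and the rules were chosen with earlier results of these data known. Alternatives were other scaling, filters, cells, luminal arms, fits and left-out mice, with list counts by luminal arm and by scaling added after seeing the data. Some genes that the rule or the lists name, among them the gene called in the test across genotypes, are not reported here.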

Additional observations from a re-analysis of the deposited data

Results flagged for a closer look

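*Colec12*, higher in the *Brca1* tumors, was not higher in the Br53 tumors, where it had 0 CPM in both, against 0.0147 and 0.219 CPM in the Br53 luminal mice. The difference between tumor and luminal mice was 6.89 larger in the *Brca1* mice than in the Br53 mice on the log2(CPM + 1) scale. The 2 Br53 tumors count as below their luminal mice only by the few reads of the latter, 1 read in the virgin mouse. The test of the difference across all genes did not pass (edgeR adjusted p = 0.166).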

How the results depend on the processing

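The number of called genes depended on the test and the mice. Against 12, edgeR called 252 (155 higher, 97 lower) without the filter on low counts and 5 (1 and 4, with 4 of the 12) with 30 cells per mouse, DESeq2 called 1126 (570 and 556), and limma on means over cells called 87 higher and 21 lower genes (1.1e+02 in all, rounded to 2 digits, with 3 of the 12). With the virgin luminal mouse only, and with the pregnant luminal mice only, edgeR called 0, with 867 and 1616 genes at an unadjusted p under 0.05. Leaving out 1 mouse gave 0 (without vBrL, pBrL-1 or pBrL-2) to 400 (without BrT2), and 138 without BrT1, where a lone mouse in an arm is assumed to vary like the others. RLE size factors gave 12, library size alone 14, all 11 mice in 1 fit 18, of which 4 were among the 12, and leaving milk protein genes out 11, *Cel* being one of those left out. The 494 tumor-specific genes became 1145 with a gap of 2 and 247 with a gap of 4, and 1285 with a pseudocount of 0.1 CPM and 92 with one of 10 CPM, and 538 to 585 without 1 luminal mouse. With a pseudocount of 10 CPM 0 genes were low in BrT2 only. The genes called across genotypes went from 1 to 369 with DESeq2. Over 16 alternatives, 0 values of the named genes turned in direction. This was largely fixed in advance, because named genes had to separate the arms, so leaving out mice can hardly reverse them. Asking for at least 2000 genes per cell removed no cell of the 5 mice, and the fit with pregnant luminal mice only equals the one without vBrL. The causes of the changes in the counts were not tested. No paired analysis was possible because the 5 mice of the comparison were different animals on 5 different chips.

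There were 2 tumors, and tumor, mouse and chip were inseparable. The edgeR p-values set the difference between the arms against the spread within the arms of these 5 mice, estimated with information from all genes. The luminal arm held 1 virgin and 2 pregnant mice, so stage is part of that spread. List counts by luminal arm and scaling were chosen after seeing the data. Both tumors were below vBrL alone in 25 of 33 interferon and antigen presentation genes and above in 4, where 30.9% and 35.4% of all genes were. With TMM scaling 13 of 19 glycolysis genes were above the luminal mice, and with milk genes left out 10.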
